A study of Cyanidioschyzon merolae with 29 samples.

Results

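The chloroplast genome of the unicellular red alga *Cyanidioschyzon merolae* (strain NIES-3377) carries genes for parts of every complex of photosynthesis, and their transcripts were followed here in cultures exposed to nickel. The genes were taken by locus and description. A gene was included when its locus name begins with CMV, the prefix of the chloroplast genome, and its description names a photosystem, cytochrome b6 or f, ATP synthase, a phycobiliprotein, the phycobilisome or Rubisco, or begins with psa, psb, pet, atp, apc or cpc. This gave 56 of the 4984 genes in the table of counts and of its 207 chloroplast genes, and 54 of them had enough counts to be tested. The other 2 were *psaJ* of photosystem I, with 0 to 4 counts per library, and *ycf12* of photosystem II, with 0 to 1. By complex the 56 genes comprised 13 genes of photosystem I, 13 of photosystem II, 7 of the cytochrome b6f complex, 8 of the ATP synthase, 5 of allophycocyanin, 4 of phycocyanin and 3 of Rubisco. The remaining 3 were caught by their letters alone, since their descriptions begin with ATP: *CMV002C*, the Clp protease subunit *CMV107C* and the protease *ftsH*. The rule itself uses no measured value, but it was chosen with earlier results of these data known.

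Cultures were grown at pH 2.5 and 42 °C in continuous white light with 0, 1 or 3 mM Ni, given as nickel sulfate. RNA was taken on day 0 from untreated cultures and on days 5, 10 and 15 at each concentration. The 29 libraries stood for 10 conditions, with 3 cultures each, except for 1 mM Ni on day 15 with 2. All cultures were of the same strain and differed by Ni concentration and age alone, as far as the labels say. The paper reports that growth was at first inhibited at the higher of these Ni concentrations and later recovered. At the lower concentration it reports no significant difference in growth. Cultures of the same day could therefore differ in growth stage as well as in Ni, and the comparisons do not separate these.

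In red algae, light is absorbed by phycobilisomes, antennae of phycobiliproteins that sit on the outer face of the thylakoid membrane. Allophycocyanin forms their core and phycocyanin their rods, and linker proteins hold both together. The energy passes to photosystem II, which splits water through a reaction centre of the proteins D1 and D2. Electrons then move through the cytochrome b6f complex to photosystem I, and the proton gradient built on the way drives the ATP synthase. Rubisco fixes CO2 with the products, and in red algae both of its subunits are encoded in the chloroplast, as are the phycobiliproteins. Most transcripts of the nucleus carry long poly(A) tails and those of chloroplasts do not, so the poly(A) selection used for these libraries kept only part of the chloroplast RNA.

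The libraries held 2602444 to 4067107 counts, with a median of 3121668. Chloroplast genes received 2.10 to 6.82% of these, and the 56 genes 40552 to 97613 counts, or 1.20 to 3.75% of a library and 47.6 to 62.8% of its chloroplast counts. Levels are given as CPM, a gene's count relative to the TMM-scaled size of its library. They compare a gene between libraries and not with another gene, since gene lengths were not used. A pair of untreated libraries stood apart from the others of their condition. On day 15, culture C1 had 6.82% of its counts on chloroplast genes, against 2.27 and 3.23% in cultures C3 and C4, and a root mean square log2 distance over all tested genes of 1.04 and 0.975 from them, where these lay 0.391 apart. On day 5, culture C3 lay 0.766 and 0.724 from C4 and C5, which lay 0.274 apart. A level is an average over the culture, so that fewer cells with these transcripts and less of this RNA per cell cannot be told apart.

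Together the 56 genes took a smaller share of the library at both Ni concentrations on days 5 and 10. On day 5 their share was 1.93, 2.66 and 2.74% in untreated cultures, 1.66, 1.52 and 1.89% in those with 1 mM Ni and 1.55, 1.62 and 1.57% in those with 3 mM Ni. Every Ni-treated library lay below every untreated one. The same held on day 10, with 2.07, 2.53 and 2.24% in untreated cultures, 1.55, 1.42 and 1.97% in those with 1 mM Ni and 1.57, 1.80 and 1.79% in those with 3 mM Ni. On day 15 the untreated libraries spread from 1.28% in C3 to 3.75% in C1, and the ranges overlapped. The values were 1.20 and 1.83% in the pair of libraries with 1 mM Ni and 1.497, 1.76 and 1.77% in those with 3 mM Ni. The mean share at 3 mM Ni was 1.58 ± 0.0357% against 2.44 ± 0.446% in untreated cultures on day 5 and 1.72 ± 0.131% against 2.28 ± 0.229% on day 10 (SD, n = 3 each). In the exact two-sided permutation test over libraries p was 0.1 in each of these 4 comparisons, the smallest that 3 against 3 libraries allow, and 0.27 after adjustment over 54 comparisons of shares.

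**Figure D1:**
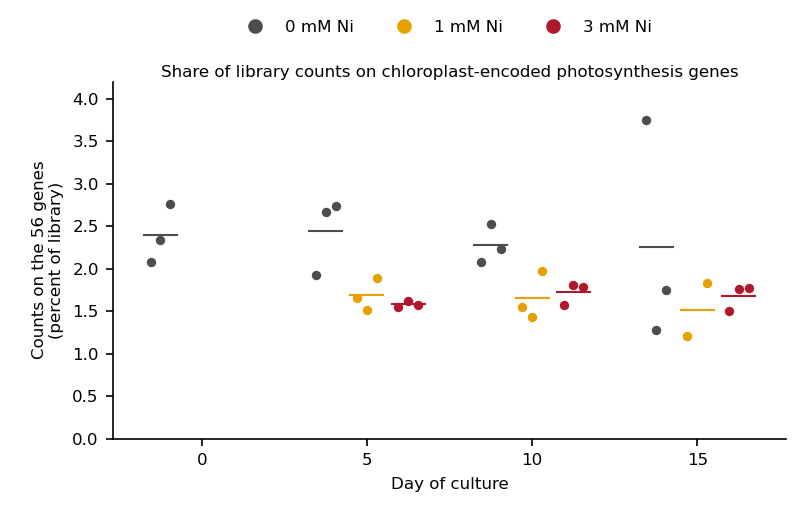
Percent of all library counts on the 56 chloroplast-encoded photosynthesis genes, by day of culture and Ni concentration. Each dot is 1 library and each bar the mean of its condition. On days 5 and 10 all libraries at 1 and 3 mM Ni lie below all untreated libraries, and on day 15 the untreated libraries span 1.28 to 3.75%.

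At 3 mM Ni the calls all pointed down. In a single fit of all libraries with edgeR's quasi-likelihood test, with p-values adjusted over 4796 genes and called below 0.05, 18 of the 54 tested genes were lower than in untreated cultures on day 5, 14 on day 10 and 15 on day 15, and none was higher on any of these days. Over all tested genes 10.2% were called on day 5 (4.77% lower), 29.2% on day 10 (14.2% lower) and 10.3% on day 15 (4.59% lower). The calls of days 5 and 15 were thus a larger share of the 54 genes than of all genes. Those of day 10 were a smaller share than all calls of that day and a larger one than its lower calls. The median log2 fold change was -0.98 on day 5, -0.52 on day 10 and -0.93 on day 15, beside -0.04, -0.02 and -0.04 over all tested genes. All 54 genes had a negative fold change on day 5, 49 on day 10 and 47 on day 15. In 29 of the 54 every library at 3 mM Ni was below every untreated library on day 5, where 15.1% of all genes did so, in 19 on day 10 (24.5% of all genes) and in 7 on day 15 (12.7%).

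**Figure D2:**
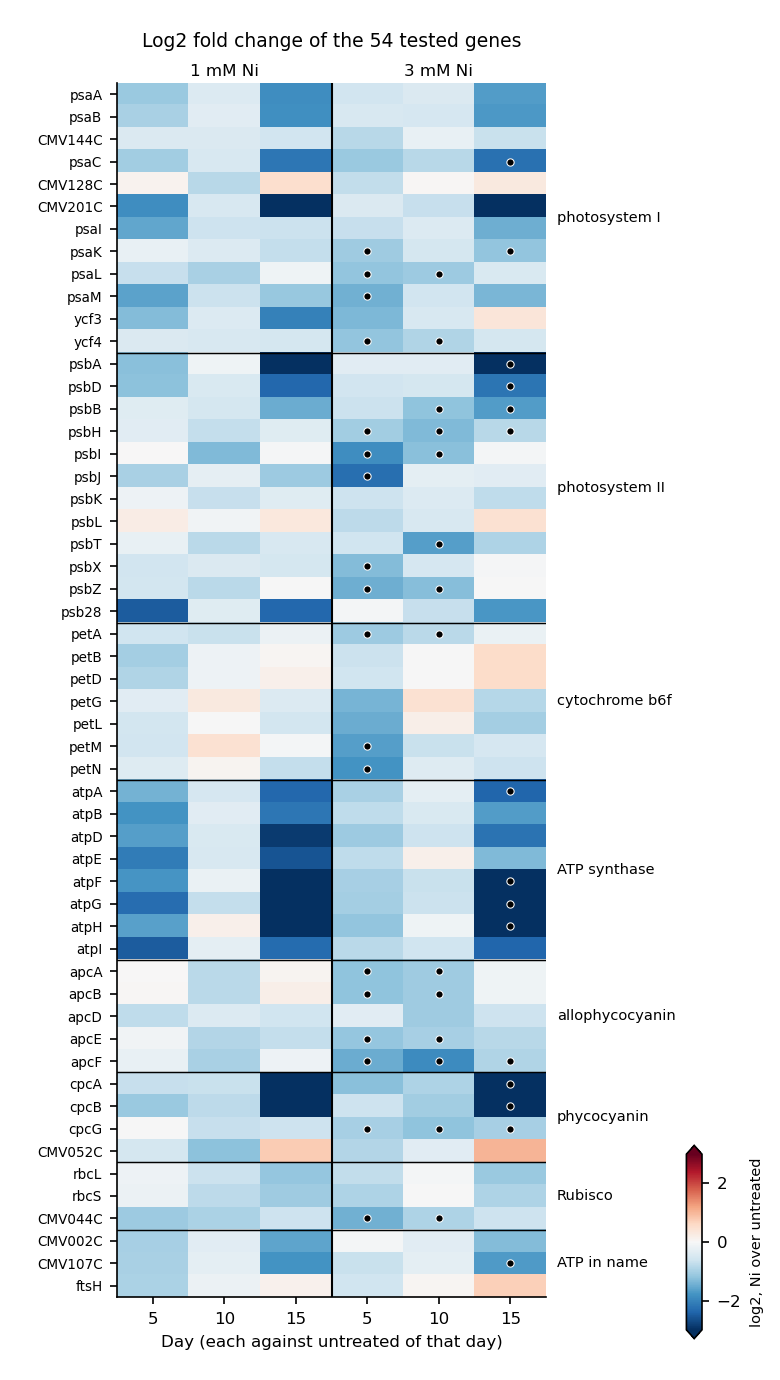
Log2 fold change of the 54 tested genes at 1 mM Ni (left) and 3 mM Ni (right) against the untreated cultures of the same day, by complex. Blue is lower and red is higher at Ni, the scale is cut at 3 in each direction, and a dot marks an adjusted p below 0.05. All dots belong to 3 mM Ni, with 18 for day 5, 14 for day 10 and 15 for day 15.

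Of the 30 genes lower on at least 1 day, 12 were called on both days 5 and 10, 4 on days 5 and 15, 4 on days 10 and 15, and 3 on all 3 days. These 3 were *apcF*, *cpcG* and *psbH*. A further 5 were called on day 5 alone, 1 on day 10 alone and 10 on day 15 alone. The calls of days 5 and 10 came mainly from small photosystem subunits, cytochrome f and the phycobilisome core, whereas those of day 15 alone were *psbA* and *psbD* (D1 and D2), *psaC* of photosystem I, *cpcA* and *cpcB* (the phycocyanin chains), *atpA*, *atpF*, *atpG* and *atpH* of the ATP synthase and the Clp protease gene *CMV107C*. The 3 days do not share untreated libraries. Tests of the change in response itself called none of the 54 genes, and 0.0% of all genes, between days 5 and 10 and likewise between days 10 and 15 by edgeR. At an unadjusted p below 0.05 there were 4 higher and 1 lower for the first and 3 higher and 7 lower for the other. Over all tested genes there were 166 higher and 88 lower for the first and 479 and 579 for the other. DESeq2 called 0 and 1 of the 54. A difference between the days was thus not shown for single genes.

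Photosystem II, the complex that splits water, had 5 of its 12 tested genes called on day 5, 5 on day 10 and 4 on day 15. Among its small subunits *psbZ* had 66.6, 52.5 and 64.8 CPM at 3 mM Ni on day 5, against 189, 166 and 156 CPM in untreated cultures. It had 70.5, 69.3 and 97.8 CPM at 3 mM Ni on day 10, against 155, 199.9 and 218 CPM. The libraries did not overlap on either day, and the log2 fold change was -1.47 ± 0.23 on day 5 (SE, adjusted p = 0.000391, edgeR) and -1.27 ± 0.22 on day 10 (adjusted p = 0.000521). On day 15 *psbZ* stood at 119, 93.3 and 97.4 CPM at 3 mM Ni and 97.3, 105 and 112 CPM in untreated cultures, which overlapped (log2 fold change -0.02).

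The lowest fold change of the complex on day 5 was that of the small subunit gene *psbJ*, -2.27 ± 0.40 (adjusted p = 0.00128, edgeR), with levels of 2.20, 2.65 and 2.03 CPM at 3 mM Ni against 13.5, 10.4 and 9.66 CPM in untreated cultures. These are few counts, since *psbJ* had 7 to 46 counts per library. On day 10 it overlapped, with 5.98, 11.5 and 4.48 CPM at 3 mM Ni and 9.48, 7.95 and 9.65 CPM in untreated cultures. The small subunit gene *psbI* fell by 1.86 on the log2 scale on day 5 and by 1.26 on day 10, and *psbX* by 1.29 on day 5. The opposite order in time was seen for *psbT*, which had 7.31, 9.47 and 9.75 CPM at 3 mM Ni on day 10, against 29.9, 30.0 and 24.4 CPM in untreated cultures (-1.66 ± 0.35, adjusted p = 0.00177), and was not called on day 5 (-0.59). Its neighbour *psbB*, the gene of the core antenna CP47, had 157, 167 and 171 CPM at 3 mM Ni on day 10, against 410.0, 382 and 355 CPM (-1.21 ± 0.41, adjusted p = 0.0282). *psbH*, a small subunit gene, was lower on all 3 days, with log2 fold changes of -1.05, -1.33 and -0.83, the last of which was -0.62 and not called without untreated C1.

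The genes of the reaction centre proteins D1 and D2 were not called on days 5 and 10. *psbA*, which encodes D1, had 228, 337 and 287 CPM at 3 mM Ni on day 5, against 234, 336 and 510.4 CPM in untreated cultures, and 92.8, 97.9 and 259.6 CPM on day 10, against 145, 211 and 219 CPM. The groups overlapped on both days, and *psbA* was not called (-0.34 and -0.35). On day 15 the levels were 119, 174 and 300.4 CPM at 3 mM Ni, against 8292, 90.1 and 163 CPM in untreated cultures C1, C3 and C4. The call of that day, -3.85 ± 1.03 (adjusted p = 0.0227, edgeR), turned to 0.64 without C1 and was lost (adjusted p = 0.572). *psbD*, the gene of D2, was similar, at 182, 152 and 176 CPM at 3 mM Ni on day 15 against 1959, 153 and 209.8 CPM, with a log2 fold change of -2.18 that became -0.10 without C1. *psbL*, for a small subunit, had the highest log2 fold change of the complex on day 15 (0.45) and was not called (adjusted p = 0.606, edgeR). The assembly factor gene *psb28* was not called on any day and ranged between log2 fold changes of -1.74 on day 15, which was 0.43 without C1, and -0.06 on day 5.

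Photosystem I, which passes electrons on to ferredoxin, had 4 of 12 tested genes called on day 5, 2 on day 10 and 2 on day 15. The subunit gene *psaL* had 96.5, 112 and 128 CPM at 3 mM Ni on day 5, against 197, 282 and 282 CPM in untreated cultures, and 111, 128 and 185 CPM on day 10, against 249, 372 and 284 CPM. Every treated library was below every untreated one on both days (-1.18 ± 0.24 with adjusted p = 0.00372 and -1.09 ± 0.24 with adjusted p = 0.00225, edgeR). *ycf4*, whose product assembles photosystem I, behaved in the same way, at 387, 338 and 338 CPM against 825, 784 and 820.4 CPM on day 5 and 350.4, 411 and 487 CPM against 687, 812 and 832 CPM on day 10. The small subunit gene *psaM* was called on day 5 (-1.45 ± 0.44), and *psaK* on days 5 and 15 (-1.06 and -1.18, the last of which was -0.80 without C1).

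*psaA* and *psaB*, which encode the large reaction centre proteins of photosystem I, were not called at any time. *psaA* had 725, 977 and 855 CPM at 3 mM Ni on day 5, against 566, 1321 and 1939 CPM in untreated C3, C4 and C5. The treated libraries lay inside the untreated range, but above C3 alone and below both C4 and C5. *psaB* had 411, 516 and 462 CPM at 3 mM Ni, against 282, 704 and 963 CPM, again above C3 alone. Its reads may be shared with *CMV144C*, a locus with the same description (apoprotein A2), which had 176, 172 and 177 CPM at 3 mM Ni and 285, 324 and 333 CPM in untreated cultures on day 5. Reads that align to several places are left out by default in the counting tool, so the levels of this pair are uncertain. *psaC*, the gene of the iron-sulfur subunit, did not overlap on days 5 and 10 but was called only on day 15 (-2.24 ± 0.56, adjusted p = 0.0187), where C1 had 349 CPM against 23.7 and 47.1 CPM in the other untreated cultures. Without C1 its log2 fold change on day 15 was -0.27. The highest and lowest log2 fold changes of the complex on day 10 were those of *CMV128C*, a row described as an iron-sulfur centre subunit (0.03) and *psaL*, and on day 15 those of *ycf3* (0.37), an assembly factor gene, and *CMV201C* (-3.14, adjusted p = 0.0620), the last of which was 0.11 without C1.

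The cytochrome b6f complex, which links both photosystems, had 3 of its 7 tested genes called on day 5, 1 on day 10 and 0 on day 15. On day 5 all 7 log2 fold changes were negative, with a median of -1.40 and an unadjusted p below 0.05 for each (edgeR). Whether the called genes differed from the others was not tested. *petA*, which encodes cytochrome f, had 417, 445 and 472 CPM at 3 mM Ni on day 5, against 708, 1085 and 1059 CPM in untreated cultures. On day 10 it had 513, 541 and 576 CPM at 3 mM Ni, against 859, 998 and 1006 CPM. Neither day showed an overlap, and the log2 fold change was -1.10 ± 0.22 (adjusted p = 0.00302, edgeR) and -0.81 ± 0.22 (adjusted p = 0.00768). The small subunit genes *petN* (-1.79 ± 0.40, adjusted p = 0.00688) and *petM* (-1.66 ± 0.42, adjusted p = 0.0132) were called on day 5 alone. *petG* and *petL*, for further small subunits, had log2 fold changes of -1.40 and -1.49 on day 5 without overlap and did not pass the test (adjusted p = 0.0520 and 0.0509).

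The adjacent loci *petB* and *petD*, for cytochrome b6 and subunit IV, were not called in any comparison with untreated cultures of the same day. *petB* had 2950.1, 3242 and 2991 CPM at 3 mM Ni on day 5, against 2222, 7009.7 and 5226 CPM in untreated C3, C4 and C5, and C3 alone lay below the treated libraries. Without C3 its log2 fold change was -0.999 and was called (adjusted p = 0.00309, edgeR), against -0.65 with it. On day 15 *petB* had 2600.0, 3399 and 3095 CPM at 3 mM Ni, against 2259, 1766 and 2226 CPM in untreated cultures. All treated libraries were then above all untreated ones, as they were for *petD* and *ftsH*, although the fold changes of 0.54, 0.55 and 0.72 did not pass the test (adjusted p = 0.215, 0.179 and 0.166). No other gene of the 54 had every library at 3 mM Ni above every untreated one on any day.

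The 8 genes of the ATP synthase were low in counts, with 186 to 2847 counts per library for all of them together. None was called on day 5 or day 10, and *atpA*, *atpF*, *atpG* and *atpH* were called on day 15. At an unadjusted p below 0.05, edgeR gave none of the 8 on days 5 and 10, and none was called by DESeq2 on these days. All 8 log2 fold changes were nevertheless negative on day 5, with a median of -0.98. Untreated C3 of that day had these genes at a median of 0.372 times the mean of C4 and C5. *atpA*, the gene of the catalytic head's alpha subunit, had 51.2, 81.1 and 82.8 CPM at 3 mM Ni on day 5. The untreated cultures C3, C4 and C5 had 66.3, 159.6 and 197 CPM, so that C4 and C5 lay above every treated library. On day 15 it had 29.8, 33.9 and 45.0 CPM at 3 mM Ni, against 503, 30.9 and 32.3 CPM in C1, C3 and C4. The treated values lay around those of C3 and C4, and the log2 fold change of -2.37 ± 0.67 (adjusted p = 0.0279, edgeR) turned to 0.19 without C1. *atpB* and *atpE*, for the beta and epsilon subunits of the head, were called on no day (-1.68 and -1.32 on day 15, and 0.63 and 0.82 without C1). Nor were *atpD* and *atpI*, whose log2 fold changes on day 15 were -2.22 and -2.37 with C1 and 0.65 and 0.15 without it. *atpF* and *atpG*, for further subunits, had -3.70 and -3.88 with C1 and -0.32 and 0.53 without it. *atpH*, which encodes the ring subunit of the membrane part, had a log2 fold change of -3.88 on day 15 with C1 and -0.11 without it.

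Allophycocyanin, the phycobilisome core, had 4 of 5 genes called lower on day 5, 4 on day 10 and 1 on day 15. *apcF*, described as the B18 chain, had the smallest adjusted p of all 54 genes on day 10. It had 208, 182 and 214 CPM at 3 mM Ni on day 5, against 734, 441 and 526 CPM in untreated cultures, and 195, 222 and 438 CPM on day 10, against 975, 1291 and 917 CPM. On day 15 it had 403, 518 and 569 CPM, against 897, 815 and 1059.8 CPM. The groups did not overlap on any of the 3 days. The log2 fold changes were -1.49 ± 0.27 (adjusted p = 0.00154), -1.90 ± 0.27 (adjusted p = 0.000125) and -0.90 ± 0.26 (adjusted p = 0.0343, edgeR). Without untreated C1 that of day 15 was -0.92 and not called (adjusted p = 0.0829).

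The main core chains and the linker that anchors the core were lower on days 5 and 10 and not on day 15. *apcA* (alpha chain) had 1388, 1578 and 1402 CPM at 3 mM Ni on day 10, against 2528, 3668 and 2888 CPM in untreated cultures (-1.06 ± 0.33, adjusted p = 0.0183, edgeR). On day 15 it had 1225, 1608 and 1732 CPM, against 1307, 1412 and 2304 CPM, and overlapped (-0.14). *apcB* (beta chain) and *apcE* (core linker) followed. The log2 fold changes on days 5, 10 and 15 were -1.20, -1.06 and -0.14 for *apcB* and -1.17, -1.002 and -0.83 for *apcE*. On day 5, untreated C3 had the highest *apcA* level of its group, and without it the calls of *apcA* and *apcB* were lost (-0.76, adjusted p = 0.0832, and -0.71, adjusted p = 0.104). *apcD*, the gene of a terminal emitter chain, was not called (-0.33 on day 5, the highest of the complex).

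In the phycocyanin rods only *cpcG*, the linker gene between rod and core, was called on days 5 and 10. It had 303, 186 and 210.1 CPM at 3 mM Ni on day 5, against 699, 349 and 354 CPM in untreated cultures, and 468, 513 and 355 CPM on day 10, against 1189, 951 and 928 CPM. On day 15 it had 601, 475 and 511 CPM, against 1711, 676 and 789 CPM. No overlap was seen on any day, with log2 fold changes of -1.004 ± 0.31, -1.20 ± 0.31 and -0.9996 ± 0.31 (adjusted p = 0.0396, 0.00663 and 0.0413, edgeR), but the call on day 5 was lost without untreated C3 (-0.59) and that on day 15 without C1 (-0.47). The genes of the phycocyanin chains themselves were sparse. *cpcB*, for the beta chain, had 8.51, 17.6 and 31.8 CPM at 3 mM Ni on day 15, against 1396, 9.82 and 24.9 CPM in untreated C1, C3 and C4, and *cpcA*, for the alpha chain, had 5.58, 5.69 and 10.3 CPM, against 308, 6.64 and 9.23 CPM. Their log2 fold changes of -4.65 and -3.90 were 0.13 and -0.16 without C1. *CMV052C*, described as a phycobilisome degradation protein, had 0 to 11 counts per library, too few for a statement on its direction (-0.87, -0.33 and 1.03).

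Of the Rubisco genes neither subunit was called. *rbcL*, for the large subunit, had 945, 884 and 919.9 CPM at 3 mM Ni on day 5, against 2339.7, 987 and 1226 CPM in untreated cultures, and *rbcS*, for the small subunit, had 308, 249 and 247 CPM, against 706, 399 and 426 CPM. Both were without overlap on that day (-0.73 ± 0.38, adjusted p = 0.223, and -0.93 ± 0.35, adjusted p = 0.0867, edgeR). On day 10 the cultures at 3 mM Ni disagreed among themselves. *rbcL* had 2030.0 CPM in 3A and 2544 CPM in 3B but 1144 CPM in 3C, around the untreated values of 1854, 2136 and 1954 CPM. The remaining gene, *CMV044C*, is described as a probable regulator of Rubisco transcription and was called lower on days 5 and 10, at 154, 176 and 197 CPM at 3 mM Ni on day 5 against 292, 596 and 535 CPM (-1.43 ± 0.30, adjusted p = 0.00404) and -0.94 on the log2 scale on day 10.

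Of the 3 genes that are no part of a photosynthetic complex, *ftsH*, for a membrane protease that degrades damaged D1 in plants and cyanobacteria, was not called at Ni. It had 1512, 2053 and 1731 CPM at 3 mM Ni on day 15, against 1201, 790.1 and 1220.0 CPM in untreated cultures. *CMV107C* was called on day 15 (-1.70), a value of -0.06 without C1, and *CMV002C* on no day (-0.06 on day 5). Without these 3 genes the counts of calls were 18, 14 and 14 on days 5, 10 and 15.

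**Figure D3:**
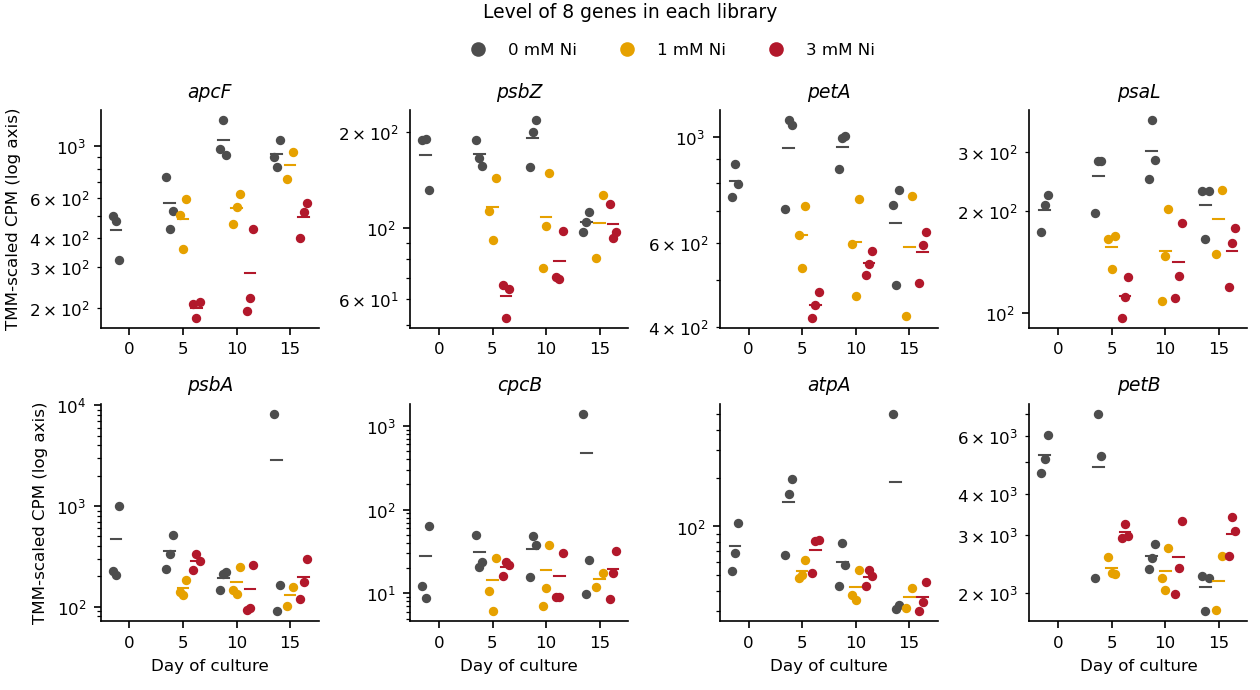
TMM-scaled CPM of 8 genes in each library on a logarithmic axis, by day and Ni concentration, with the mean of each condition as a bar. The upper 4 genes are lower at 3 mM Ni on days 5 and 10 without overlap. Of the lower 4, *psbA*, *cpcB* and *atpA* have 1 untreated library on day 15 (8292, 1396 and 503 CPM) far above all others, and *petB* has 1 untreated library on day 5 (2222 CPM) below the rest of its condition.

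The day 15 calls depended on single libraries, untreated C1 above all. Relative to the mean of C3 and C4, C1 had a median of 3.03 times the level over the 54 genes, and 34 of them were more than 2 times higher in it. Over all tested genes the median of this ratio was 0.968. The excess was not even among complexes. It was largest in *cpcB* (80.4 times), *psbA* (65.5 times) and *atpG* (63.6 times), and the 8 ATP synthase genes were 12.5 to 63.6 times higher, whereas *apcA*, *apcB* and *petB* were at 0.703, 0.649 and 1.13 times. With C1 left out, 0 of the 54 genes were called at 3 mM Ni on day 15 by edgeR (1 higher and 3 lower with an unadjusted p below 0.05), and the median log2 fold change was -0.10. Over all genes 3.05% were called in this fit. The log2 fold change of *apcF* was -0.92, against -0.90 with C1, and that of *psaK* -0.80, against -1.18, while 16 of the 47 negative ones turned positive, 4 of them of called genes (*atpA*, *atpG*, *cpcB* and *psbA*). Without either of the other untreated cultures of that day the number of calls was 32 (C3, with 10.2% of all genes called lower) and 22 (C4, with 8.28%), and without any of the 3 cultures at 3 mM Ni it was 1 to 3. No gene called on day 15 was called in every fit with 1 of the 6 libraries left out. *psaK* came nearest, called in 5 of 6 with a highest adjusted p of 0.0549 (edgeR, without C1).

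The calls of days 5 and 10 were steadier. On day 5, 11 of the 18 genes were called in every one of the 6 fits, among them *psbJ*, *psbZ*, *apcF*, *petA*, *psaL* and *ycf4*. On day 10 it was 8 of 14, among them *apcF*, *psbZ*, *psbH*, *psbT* and *psaL*. The number called ranged from 12 to 20 on day 5, and reached 12 without culture 3D, and from 8 to 14 on day 10, with 8 without culture 3A. Leaving out untreated C1 of day 15, which is in neither comparison but adds to the common estimate of spread, raised the counts to 26 on day 5 and 17 on day 10, where 8.66% and 18.5% of all genes were then called lower.

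**Figure D4:**
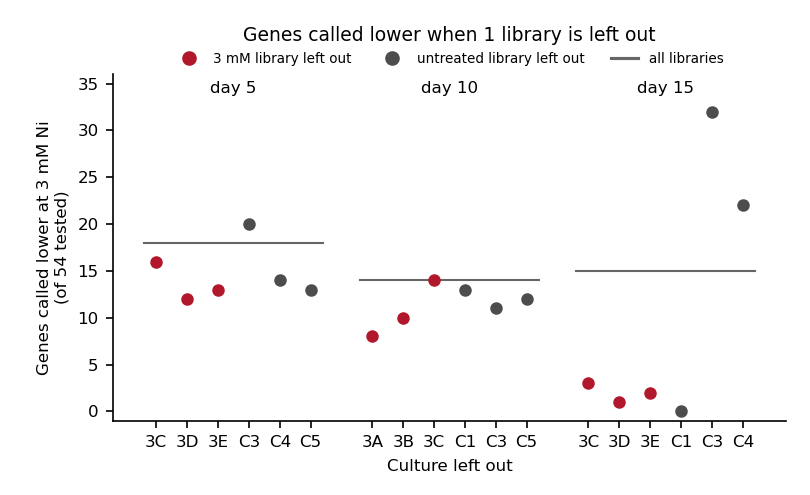
Number of the 54 tested genes called lower at 3 mM Ni when the library of 1 culture in the comparison is left out of the fit, for days 5, 10 and 15. Red dots are fits without a 3 mM library, grey dots fits without an untreated library, and lines the fit of all libraries (18, 14 and 15 genes). On day 15 the count is 0 without untreated C1 and 32 without untreated C3.

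At 1 mM Ni none of the 54 genes was called on any day by edgeR, where 0.48%, 0.146% and 0.0% of all tested genes were called on days 5, 10 and 15. At an unadjusted p below 0.05 there were 17, 13 and 25 of the 54, all lower. Of all 4796 tested genes, 609, 237 and 253 were lower at that threshold and 519, 183 and 183 higher. Of 35 tested chloroplast ribosomal protein genes 22, 2 and 11 were lower, and of 101 other chloroplast genes 61, 16 and 34. None of either list was higher. Their median log2 fold changes on day 5 were -1.74 and -0.99. DESeq2 called 5, 3 and 0 of the 54, where it called 4.05%, 0.622% and 0.0201% of all genes. The median log2 fold changes of the 54 were -0.73, -0.47 and -0.71, beside -0.98, -0.52 and -0.93 at 3 mM Ni. Both concentrations were compared with the same untreated libraries. Without untreated C1 the 25 genes of day 15 became 1, lower, and the median log2 fold change of that day was -0.07. That of the 8 ATP synthase genes was -2.73 with C1 and 0.07 without it. On days 5 and 10 all 3 libraries at 1 mM Ni lay below all untreated ones in 20 of the 54 genes (13.3 and 12.0% of all genes), and in 5 on day 15 (6.07%).

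On day 5 the genes differed in how their levels were ordered by concentration. *petB* had 2222, 7009.7 and 5226 CPM in untreated cultures, 2583, 2299 and 2285 CPM at 1 mM Ni and 2950.1, 3242 and 2991 CPM at 3 mM Ni. *atpE* had 7.94, 10.4 and 16.5 CPM in untreated cultures, 2.61, 3.07 and 2.32 CPM at 1 mM Ni and 3.46, 10.9 and 6.10 CPM at 3 mM Ni. *apcF* had 734, 441 and 526 CPM in untreated cultures, 504, 359.9 and 591 CPM at 1 mM Ni and 208, 182 and 214 CPM at 3 mM Ni. The mean levels of *petB* and *atpE* were lowest at 1 mM Ni, while *apcF* was within the untreated range at 1 mM Ni apart from culture 1B and below it at 3 mM Ni. By complex the median log2 fold change at 1 mM Ni on day 5 was -1.78 for the ATP synthase, -1.01 for photosystem I, -0.58 for cytochrome b6f and -0.11 for allophycocyanin. At 3 mM Ni the same medians were -0.98, -0.95, -1.40 and -1.20.

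The absence of calls at 1 mM Ni on day 5 depended on 2 untreated libraries. Without C3 of day 5, 13 of the 54 genes were called lower, among them *petB* (-1.36) and *petD* (-1.22). In the same fit 29.7% of all genes were called in either direction, a larger share than among the 54. The 14.0% called lower were a smaller share than among the 54. Without C1 of day 15, which is not in this comparison, 14 were called lower, where 4.42% of all genes were, among them *psaM*, *atpA* and *atpE* (-1.60, -1.41 and -2.11). Without both, 1 mM Ni had 24, 4 and 0 called genes on days 5, 10 and 15, with 20.3% and 0.876% of all genes called lower on days 5 and 10 and 0.0% called on day 15. At 3 mM Ni the counts were 29, 17 and 2, with 15.6% and 20.2% of all genes called lower on days 5 and 10 and 6.32% called on day 15. The last 2 were *psaK*, lower, and *ftsH*, higher. In untreated C3 of day 5 the 54 genes stood at a median of 0.731 times the mean of C4 and C5, with the ATP synthase genes at 0.372 times and the allophycocyanin genes at 1.52 times.

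Set directly against each other, 3 and 1 mM Ni differed for *apcF* on day 10 alone, with 195, 222 and 438 CPM at 3 mM Ni against 463, 544 and 622 CPM at 1 mM Ni (-0.93 ± 0.27, adjusted p = 0.0344, edgeR). This was 1 of 54 genes, where 8.55% of all genes were called (3.54% lower), and the call was lost without any 1 of the 6 libraries except 3C. On day 5 none of the 54 was called by edgeR (0.0834% of all genes), with 1 higher and 17 lower at an unadjusted p below 0.05 and 5 called by DESeq2 (1.44% of all genes), which were *apcF*, *apcE*, *apcA*, *apcB* and *cpcG*. Over all tested genes 268 were higher and 358 lower at that unadjusted p on day 5. On day 15 none of the 54 was called by either tool (0.0% of all genes). At an unadjusted p below 0.05, 1 of them was higher and 1 lower, beside 146 and 67 of all genes.

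Without Ni, some of the genes differed with the age of the culture. Against day 0, 5 of the 54 were called on day 5 (2 higher, 3 lower), 6 on day 10 (3 higher, 3 lower) and 14 on day 15 (9 higher, 5 lower). Over all genes the shares were 39.7% on day 5 (19.4% lower), 40.0% on day 10 (18.9% lower) and 36.1% on day 15 (16.6% lower), and the shares among the 54 genes were smaller on each day. Both Rubisco subunits were lower on day 5 (-1.06 ± 0.38 for *rbcL*, adjusted p = 0.0315, edgeR). The number called on day 5 was 1 without culture C5 or day 0 culture C4, and 8 without C1 of day 15. Genes of the phycobilisome core were higher on day 10, with *apcF* at 498, 477 and 323 CPM on day 0, 734, 441 and 526 CPM on day 5, 975, 1291 and 917 CPM on day 10 and 897, 815 and 1059.8 CPM on day 15. *apcA* and *apcB* were higher on day 10 as well (1.07 and 1.06). Whether the differences at 3 mM Ni reflect another growth stage of these cultures was not tested.

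The opposite course was that of *petB*, *petD* and *ftsH*, lower on days 10 and 15 than on day 0. *petB* had 4622, 5089.9 and 6028 CPM on day 0, 2376, 2561 and 2825 CPM on day 10 and 2259, 1766 and 2226 CPM on day 15, without overlap between day 0 and either later day (-1.02 ± 0.28 and -1.33 ± 0.28, adjusted p = 0.00630 and 0.00108, edgeR). *ftsH* fell to 1201, 790.1 and 1220.0 CPM on day 15, against 3659.7, 4273 and 6102 CPM on day 0 (-2.13 ± 0.35). These 3 calls of day 15 did not rest on C1 (-1.39, -1.22 and -2.22 without it). The higher calls of day 15 did, except for *apcF*. Without C1, 16 genes were called on day 15 (30.6% of all genes), all lower except *apcF*, and *psaA* was then among the lower (-1.89, against 0.20 with C1).

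Chloroplast genes outside the selection moved with these genes at 3 mM Ni. They include some genes of photosynthesis that the descriptions left out, such as ferredoxin, cytochrome c6 and cytochrome b559. On day 5 the median log2 fold change was -0.92 for 35 tested chloroplast ribosomal protein genes (6 called lower, none higher) and -0.90 for 101 other chloroplast genes (29 lower, none higher), beside -0.98 for the 54. The share of chloroplast counts held by the 56 genes was 55.4, 54.9 and 54.02% at 3 mM Ni on day 5, against 50.2, 48.8 and 47.6% in untreated cultures, and thus higher. On days 10 and 15 the shares overlapped, at 53.95, 54.2 and 54.5% against 55.1, 53.4 and 51.8% and 56.5, 57.7 and 56.1% against 55.0, 56.6 and 54.04%. When the chloroplast genes were fitted and scaled on their own, edgeR called 0 of the 53 tested photosynthesis genes at 3 mM Ni on any day, and 0.0% of all 185 chloroplast genes, and the median log2 fold change was -0.10, -0.05 and -0.30. At an unadjusted p below 0.05 it gave 1 higher and 3 lower for day 5, 1 higher and 6 lower for day 10, and 3 higher and 12 lower for day 15. The fold changes given before are relative to all transcripts of a library, which were mainly nuclear. Between 3 and 1 mM Ni on day 5 this fit called 7 genes, and 14.6% of all chloroplast genes, of which *psb28* was higher and *petN*, *apcF*, *apcE*, *psbI*, *ycf4* and *petM* were lower.

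Within the chloroplast transcripts the summed counts of 3 complexes differed in share without overlap. Each sum follows its genes with most counts. For cytochrome b6f these were *petB* and *petD* (280363 and 146536 counts over all libraries, against 63105 for *petA*). For phycocyanin it was *cpcG* (58626, against 5032 for *cpcB* and 1370 for *cpcA*). *petA* itself was called lower on day 10. Cytochrome b6f held 13.6, 13.8 and 18.5% of chloroplast counts at 3 mM Ni on day 10, against 12.0, 10.5 and 12.4% in untreated cultures, and 18.2, 20.1 and 18.02% on day 15, against 5.15, 14.4 and 12.9%. Its share was higher in every treated library on both days. Allophycocyanin was lower on day 10, with 12.1, 11.9 and 11.4% at 3 mM Ni, against 17.6, 19.7 and 15.9% in untreated cultures, and phycocyanin with 1.82, 1.73 and 1.27% against 3.17, 2.15 and 2.26%. At 1 mM Ni the day 10 shares were 14.3, 13.8 and 13.5% for cytochrome b6f and 14.3, 13.96 and 13.6% for allophycocyanin. The exact permutation test over libraries gave p = 0.1 for each of these comparisons of 3 mM Ni with untreated cultures, the smallest possible, and 0.45 after adjustment over 54 comparisons. Photosystem I, photosystem II, the ATP synthase and Rubisco overlapped between 3 mM Ni and untreated cultures on all 3 days.

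**Figure D5:**
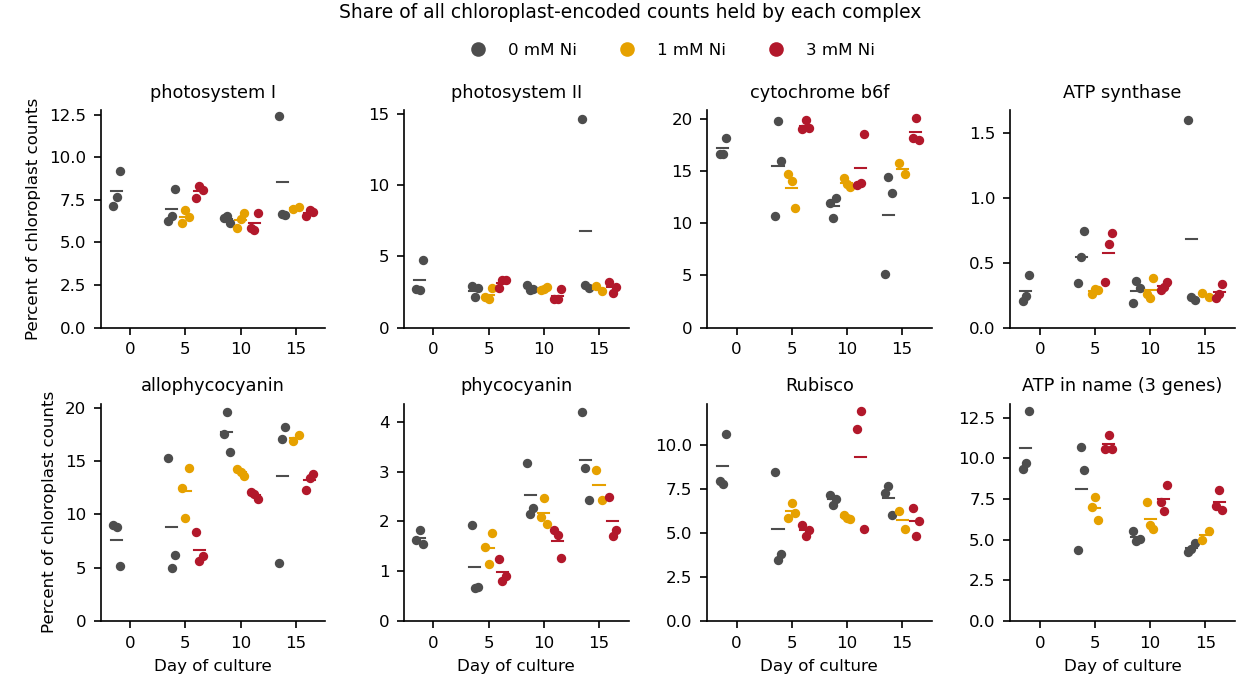
Percent of all chloroplast-encoded counts held by the genes of each complex, by day and Ni concentration. Each dot is 1 library and each bar the mean of its condition. At 3 mM Ni the cytochrome b6f share is above all untreated libraries on days 10 and 15, and the allophycocyanin share is below them on day 10 (11.4 to 12.1%, against 15.9 to 19.7%).

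The soluble carriers and other chloroplast genes of the same chain that the descriptions left out of the selection were also lower on day 5. At 3 mM Ni the log2 fold change was -1.25 ± 0.32 for ferredoxin (*CMV193C*, adjusted p = 0.0143, edgeR), -0.90 ± 0.20 for cytochrome c6 (*CMV209C*, adjusted p = 0.00700) and -0.93 ± 0.20 for cytochrome c-550 (*CMV208C*, adjusted p = 0.00459). All 3 were called on day 10 too (-0.83 ± 0.31, -0.75 ± 0.20 and -0.74 ± 0.19) and none on day 15. Both subunits of cytochrome b559 of photosystem II, *CMV231C* (alpha, -1.41 ± 0.26) and *CMV230C* (beta, -3.38 ± 0.73), were lower on day 5 alone, the beta subunit gene with a mean of 0.508 CPM at 3 mM Ni against 5.54 CPM in untreated cultures.

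Partner genes in the nucleus were mixed. They were taken by words in their descriptions, such as photosystem, light harvesting, phycocyanin or Rieske. Genes described without such words are not in this list. Of 20 nucleus-encoded photosynthesis genes, 2 were called higher and 2 lower at 3 mM Ni on day 5, 2 higher and 8 lower on day 10, and 2 higher and 1 lower on day 15. The 2 higher genes were the same on each day, *CMO066C* and *CMQ165C*, both described as the iron-sulfur subunit of the cytochrome b6f complex. *CMO066C* rose by 2.51 ± 0.33, 1.87 ± 0.34 and 2.32 ± 0.35 on the log2 scale on days 5, 10 and 15 (adjusted p = 6.33e-05, 0.000638 and 0.000474, edgeR), and *CMQ165C* by 1.92 ± 0.29, 0.93 ± 0.29 and 0.96 ± 0.29. In the same complex the chloroplast gene *petA* was lower on days 5 and 10. A further nuclear gene with this description, *CMI281C*, had log2 fold changes of -0.12 ± 0.19, 0.13 ± 0.19 and 0.09 ± 0.19 and was not called. Among the 8 lower on day 10 were a phycocyanin rod linker (*CMP166C*, -1.13 ± 0.41), a protein similar to PsbP of the oxygen-evolving complex (*CMT368C*, -1.53 ± 0.50) and a presumed regulator of the Rubisco operon (*CMT172C*, -1.39 ± 0.41).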

How the data were processed

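RNA-seq libraries of *C. merolae* had been made by poly(A) selection. According to the methods and the submitters' processing notes, the authors used Trimmomatic 0.39 for trimming, HISAT2 with the assembly ASM9120v1 for alignment and GATK to mark duplicates, and deposited counts per gene made by HTSeq with its reverse strand option. The counts were used as deposited.

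All 29 libraries were fitted in 1 model with 10 conditions in edgeR 4.0.16 (R 4.3.3), with TMM factors, the filterByExpr filter (4796 of 4984 genes) and the quasi-likelihood F-test. P-values were adjusted over all tested genes by Benjamini-Hochberg and called below 0.05. CPM and shares were computed from the same counts, and shares compared by exact two-sided permutation tests. DESeq2 1.42.0, limma 3.58.1 (voom, with and without a block), other filters and scalings, a fit of the compared groups, a fit of chloroplast genes and fits without single libraries served as alternatives. The edgeR fit was tested on simulated data for 3 mM Ni against untreated cultures on day 10. It called 45 of 48 genes set to a fold of 0.25, 45 of 59 set to 0.5, 29 of 40 set to 2 and 51 of 53 set to 4. It also called 7 of the unchanged genes, with 4781 genes in the fit. The simulated counts were independent draws with the spread of the fit itself. No simulated library stood apart as untreated C1 of day 15 did, so these numbers do not cover that case.

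The selection rule, the gene lists and the tests were chosen with earlier results of these data known. The genes named are a list by function (reaction centre, cytochrome, ATP synthase, phycobilisome and Rubisco subunits), the 3 with the smallest adjusted p in each comparison with untreated cultures, calls against the main direction, and the genes with the highest and lowest fold change of each complex at 3 mM Ni. Others, such as *psbI*, *psbX* and *petM*, were chosen after their values were seen. The culture names are labels from the sample titles. The methods describe the replicates as biologically independent. Some labels recur on several days, and whether these libraries came from the same culture is not stated. The main fit treated all libraries as independent. Coordinates and sequences were not used here. Gene symbols follow the descriptions in the files, and *psbC*, *psbE*, *petF* and *petJ* were not selected by the rule. The precision is set by 3 libraries per condition (2 at 1 mM Ni on day 15). The edgeR p-values rest on a spread within conditions that was estimated over all libraries and shared in part between genes. They do not measure the spread of the compared libraries alone.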

Additional observations from a re-analysis of the deposited data

How the results depend on the processing

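With 54 tested genes, the calls at 3 mM Ni on days 5, 10 and 15 (18, 14 and 15) became 20, 14 and 24 with DESeq2, 11, 16 and 0 when only the compared groups were fitted, 17, 14 and 12 with at least 10 counts in every library, and 0 on each day with the chloroplast genes fitted alone. At 1 mM Ni (0 on each day) DESeq2 called 5, 3 and 0, and the fit of the compared groups 0, 1 and 0. Between 3 and 1 mM Ni (0, 1 and 0) DESeq2 called 5, 1 and 0, the fit of the compared groups 12, 1 and 0, and the chloroplast genes alone 7, 0 and 0. Untreated days 5, 10 and 15 against day 0 (5, 6 and 14) gave 1, 14 and 4 in the fit of the compared groups and 1, 1 and 8 with the chloroplast genes alone. The change of the 3 mM response between days 10 and 15 gave 1 call with DESeq2. The cause of these differences was not tested.

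With the culture label as replicate block (limma-voom, within-label correlation -0.0538) the calls were 18, 15 and 2 at 3 mM Ni, 0 on each day at 1 mM Ni, 1, 1 and 0 between both concentrations, and 4, 6 and 7 for untreated cultures against day 0. limma-voom without the block, an alternative chosen after seeing the data, gave 18, 14 and 2 at 3 mM Ni, 1, 1 and 0 between the concentrations and 4, 6 and 7 for untreated cultures. The deviations of libraries with the same label on different days correlated with a median r of -0.041 (18 pairs, -0.498 to 0.232), and those of cultures with the same letter at different Ni concentrations on the same day with a median r of 0.315 (5 pairs, 0.0294 to 0.584, 4 of them over 0.1). Since not every pair was over 0.1, the labels were not taken as pairs. A pairing by letter between the Ni concentrations was not fitted, so its effect on the comparisons of 3 with 1 mM Ni is not known.

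With 1 library of any condition left out, the calls ranged over 12 to 26, 8 to 17 and 0 to 32 at 3 mM Ni on days 5, 10 and 15, over 0 to 14 and 0 to 2 at 1 mM Ni on days 5 and 10, over 0 to 5 and 0 to 3 between both concentrations on days 5 and 10, and over 0 to 2 for the change of the 3 mM response from day 10 to day 15. Untreated cultures against day 0 ranged over 1 to 8, 4 to 12 and 8 to 18. Without both untreated C1 of day 15 and C3 of day 5, likewise chosen after seeing the data, the counts were 29, 17 and 2 at 3 mM Ni, 24, 4 and 0 at 1 mM Ni, 10, 4 and 0 between the concentrations, and 14, 15 and 20 for untreated cultures. At 3 mM Ni on day 15, 16 of 47 negative log2 fold changes turned positive without C1. Those of called genes among them, with their values without C1 and without C1 and C3 of day 5, were *atpA* (0.19 and 0.22, down to -2.88 without C3 of day 15), *atpG* (0.53 and 0.56, down to -4.47), *cpcB* (0.13 and 0.16, down to -5.23) and *psbA* (0.64 and 0.67, down to -4.42). The difference in the share of library counts on day 15 did too, at 3 mM Ni (0.161 percentage points without C1, -1.07 without C3) and at 1 mM Ni (0.00252 and -1.23), and on days 5 and 10 it kept its sign. Scaling by nuclear genes, DESeq2 size factors in edgeR and a filter of 1 count left every count of calls as it was. The ATP synthase, *psbJ*, *cpcA* and *CMV052C* are limited by few counts, and the other genes by 3 libraries per condition.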

Other observations

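Neighbouring loci differed in how closely their counts went together over the 29 libraries. The ratio of *petD* to *petB* counts stayed between 0.450 and 0.585, that of *apcB* to *apcA* between 0.718 and 0.867, and that of *psaB* to *psaA* between 0.462 and 0.604. *rbcS* to *rbcL* ranged from 0.232 to 0.404. The neighbours *psbA* and *apcF*, in contrast, had a ratio of *apcF* to *psbA* of 0.108 to 9.04. Over the 6 pairs of consecutive loci with a median of at least 100 counts in both genes, the median SD of the log2 ratio was 0.137, beside 0.577 over 47 other pairs of the same complex and 0.640 over all 378 pairs. These pairs share genes and libraries, and the values are a description.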
